A study of Mus musculus with 4 samples.

Results

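The 15 genes described here are those of the mouse mitochondrial genome that the deposited expression table holds. They were chosen by where they lie, as the rows whose Entrez gene ID belongs to the mitochondrial genome in NCBI's gene table of GRCm38.p6, and not by their values. Of the 37 annotated mitochondrial genes, the table has the 13 protein genes and the 2 ribosomal RNA (rRNA) genes, among 27179 genes in all. The 22 transfer RNA (tRNA) genes have no row and were not analysed here. RNA was sequenced from 4 samples of leukemia stem cells (LSCs), the cells held to sustain an acute myeloid leukemia (AML), of a mouse AML model. All 4 came from bone marrow of the C57BL/6 strain and were sorted by flow cytometry for a yellow fluorescent protein, the myeloid integrin Mac-1 and the receptor c-Kit (YFP+/Mac-1+/c-Kit+). The genotype was wild type in 2 samples and B7-H4-null, lacking a B7 family ligand that restrains T cells, in the other 2 (the null libraries below). The sources used here do not give the leukemic agent, the age of the mice or whether replicates came from separate animals. The p-values therefore rest on a spread between samples that may be technical.

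The mitochondrial genome is a small circle that encodes core subunits of the respiratory chain and of ATP synthase, together with the rRNAs and tRNAs needed to translate them inside the organelle. Both strands are transcribed as long precursors, which are cut mainly at the tRNAs that sit between the other genes, and most of the messenger RNAs then receive a short poly(A) tail. All other subunits of these complexes, and the enzymes that copy, transcribe, process and translate mitochondrial DNA and RNA, are encoded in the nucleus and imported. The share of mitochondrial RNA in a library is widely used as a sign of the state of the cells and of the RNA.

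The gene boundaries bear on how these values can be read, so the sequences at which members meet are shown first (GENCODE M21 transcripts, GRCm38). mt-Atp8 and mt-Atp6, which encode the A6L and a subunits of ATP synthase, overlap by 43 bases and share one messenger RNA. The whole of mt-Atp8 (chrM:7766-7969, plus strand) is given 5′ to 3′, with the bases it shares with mt-Atp6 in capitals.
mt-Atp8: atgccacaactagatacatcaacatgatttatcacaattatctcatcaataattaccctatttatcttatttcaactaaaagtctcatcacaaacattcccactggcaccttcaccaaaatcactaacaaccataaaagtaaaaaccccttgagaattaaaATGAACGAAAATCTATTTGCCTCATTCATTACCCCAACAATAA

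mt-Nd4l and mt-Nd4, which encode the ND4L and ND4 subunits of complex I, overlap by 7 bases. The last 30 bases of mt-Nd4l (chrM:10144-10173, plus strand) carry the shared bases in capitals.
mt-Nd4l: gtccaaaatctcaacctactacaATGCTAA

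In 3 of the 13 protein genes the annotated sequence ends in an incomplete stop codon, which the poly(A) tail completes. The last 30 bases of these genes are shown with that codon's base in capitals, for mt-Co3 (chrM:9361-9390), mt-Nd4 (chrM:11515-11544) and mt-Cytb (chrM:15259-15288), all on the plus strand.
mt-Co3: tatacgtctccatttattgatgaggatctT
mt-Nd4: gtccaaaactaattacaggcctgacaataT
mt-Cytb: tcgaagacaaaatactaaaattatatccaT

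Part of the mitochondrial genome also has a copy in the nucleus. Among GENCODE M21 transcripts, 7 members matched unprocessed pseudogenes that lie side by side on chromosome 1, from 24611535 to 24616197 (GRCm38). Over the aligned bases, Gm28661 was identical to mt-Co2 (681 bases), Gm10925 to mt-Atp6 (678 bases), Gm28437 to mt-Co3 (783 bases), Gm10222 to mt-Nd4l (294 bases) and Gm28439 to mt-Nd4 (876 bases). Gm28438 differed from mt-Nd3 at 1 of 345 bases, T3C counted from 1 at the first base of mt-Nd3, and Gm29216 matched 492 bases of mt-Co1 with 6 differences. The first 60 bases of mt-Nd3 (chrM:9459-9518, plus strand) and of Gm28438 (chr1:24613060-24613119, minus strand) show how close the copy is, with the differing base in capitals.
mt-Nd3: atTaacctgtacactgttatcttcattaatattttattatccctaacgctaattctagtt
Gm28438: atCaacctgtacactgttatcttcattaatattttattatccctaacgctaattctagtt

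None of these pseudogenes has a row under its symbol in the table, though 1904 of the 27179 IDs had no symbol to check. Cut into windows of 50 bases, at least 97.99% of the windows of mt-Co2, mt-Atp6, mt-Co3, mt-Nd3 and mt-Nd4l each recurred in a nuclear transcript. The same was true of 62.2% of the windows of mt-Nd4, 51.1% of mt-Co1, 8.19% of mt-Nd2, 7.61% of mt-Nd5 and 1.04% of mt-Rnr2. No window of mt-Rnr1, mt-Nd1, mt-Atp8, mt-Nd6 or mt-Cytb recurred. The last 43 bases of mt-Atp8, shared with mt-Atp6, are matched by Gm10925 but are shorter than a window. The rest of mt-Atp8 falls into a stretch of 233 bases between Gm10925 and Gm28661 that has the same length in the mitochondrial genome and was not compared here. The sources used here do not say how the authors treated reads that align to more than 1 place, so levels of the members with copies are uncertain.

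The values are RPKM, read counts divided by the length of the gene and the depth of the library, which allow levels of different genes to be set side by side. Averaged over the 4 libraries, the members ranged from 89.7 RPKM for mt-Nd3 to 8900 RPKM for mt-Co1, a 99.2-fold range. mt-Co1 had the highest value of any gene in 3 libraries and the second highest in wild type replicate 2. The least abundant were the small complex I genes mt-Nd3 and mt-Nd4l. The 5 protein genes with near-complete nuclear copies (at least 90% of 50-base windows) had means of 89.7 to 1291 RPKM, with a median of 836. The 6 protein genes with under 10% of windows shared had means of 694 to 4899 RPKM, with a median of 1515. The lowest of these 6 is mt-Atp8, most of whose counterpart on chromosome 1 was not compared, and the next is mt-Nd2 at 1231 RPKM. The other 2 protein genes, mt-Nd4 and mt-Co1, lie between these limits and had means of 1196 and 8900 RPKM. The ranges of the groups overlap, and the part of the copies in the levels was not tested.

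**Figure D1:**
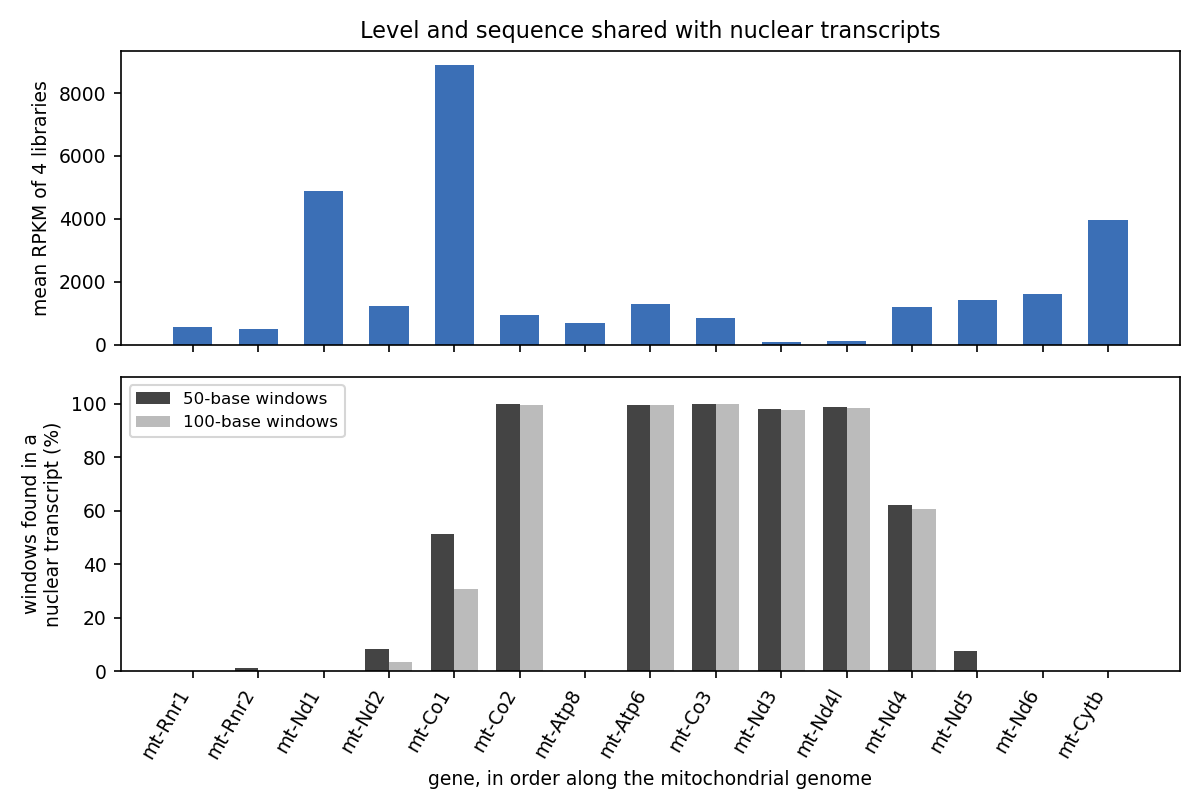
Mean RPKM over the 4 libraries (upper bars, linear axis from 0) and percent of 50-base and 100-base windows found in a nuclear GENCODE transcript (lower bars), for the 15 genes in genome order. The genes from mt-Co2 to mt-Nd4l, other than mt-Atp8, have nearly all windows in a nuclear transcript, and mt-Co1, mt-Nd1 and mt-Cytb have the highest levels.

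Together the 15 genes made up 6.45% and 3.47% of the RPKM sum in wild type replicates 1 and 2, and 6.90% and 4.29% in B7-H4-null replicates 1 and 2. In bulk samples fewer cells of a type and less RNA per cell cannot be told apart. The genotypes overlapped, since wild type replicate 1 lay above B7-H4-null replicate 2. The mean share was 4.96% ± 2.11 in wild type and 5.59% ± 1.85 in B7-H4-null (SD, n = 2), so the difference of 0.634 percentage points was smaller than the spread between replicates of either genotype. An exact permutation test of 2 against 2 libraries cannot go below p = 0.33, two-sided, and none was run. Without wild type replicate 2 the difference turned to −0.857 percentage points, and without B7-H4-null replicate 1 to −0.671. It was 2.12 when wild type replicate 1 was left out and 1.94 when B7-H4-null replicate 2 was left out.

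**Figure D2:**
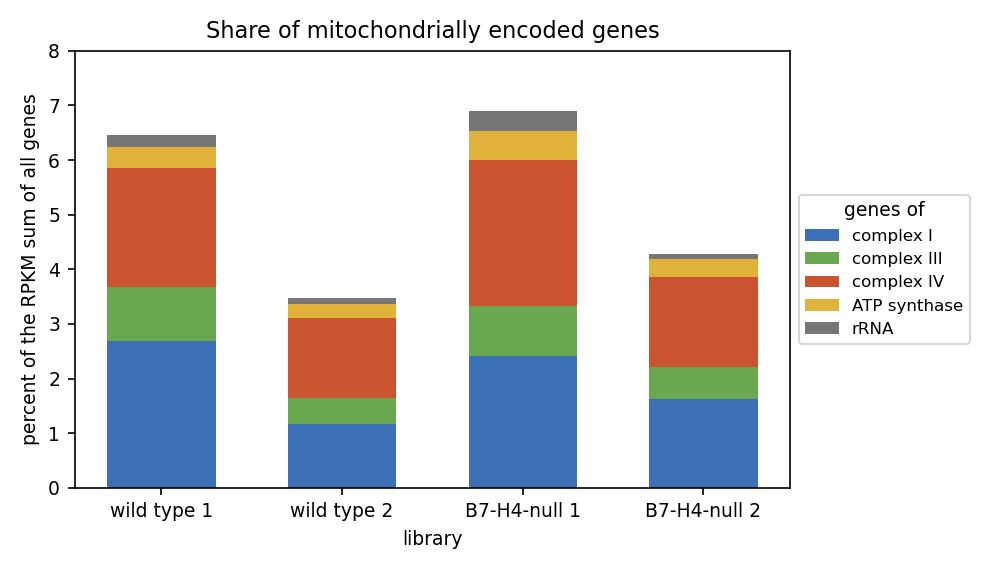
Percent of the RPKM sum of all genes taken by the mitochondrially encoded genes in each of the 4 libraries, stacked by the complex the genes belong to (linear axis from 0). The first replicate of each genotype reaches 6.45% and 6.90%, the second 3.47% and 4.29%.

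As reads, the 15 genes held 395404 and 214929 reads in wild type and 410244 and 302072 in B7-H4-null. Of library totals of 10144166, 9933947, 9419425 and 10814448 reads, that is 3.90% (exact 95% binomial interval 3.89% to 3.91%), 2.16% (2.15% to 2.17%), 4.36% (4.34% to 4.37%) and 2.79% (2.78% to 2.80%). The 4 intervals do not meet, so the libraries differ by more than counting error, while the order of the libraries crosses the genotypes. The least read value, mt-Nd3 in wild type replicate 2, still rested on 168 reads. Intervals cover counting error only, since reads without molecular identifiers are not independent molecules.

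None of the 15 genes passed the test between genotypes. The test was limma on log2(RPKM + 1), adjusted by Benjamini-Hochberg over the 12107 genes tested, of which 12 (0.0991%) passed at 0.05, 5 higher in B7-H4-null (0.0413%) and 7 lower (0.0578%). All 15 members were tested. Their log2 differences (B7-H4-null minus wild type) lay between 0.05 and 0.60 with standard errors of 0.34 to 0.72, and the adjusted p lay between 0.639 and 0.977. No member had an unadjusted p under 0.05 (the smallest was 0.235), against 12.3% of all genes tested. The median of the 15 was 0.26, beside −0.09 over all genes tested. No member had libraries of the genotypes that did not overlap, against 44% of all genes tested. The members are cut from shared precursors and are not independent of each other.

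All 15 differences were above 0, but 1 library decided that direction for most of them. With wild type replicate 2 left out, 10 of the 15 were below 0 and the median was −0.12, and with B7-H4-null replicate 1 left out, 10 were below 0 and the median was −0.07. All 15 were above 0 with wild type replicate 1 left out (median 0.79) and with B7-H4-null replicate 2 left out (median 0.60). mt-Atp8, mt-Atp6 and mt-Co3 were the members above 0 with any 1 of the 4 libraries left out. mt-Co2 and mt-Nd6 turned to −0.15 and −0.19 after quantile normalization.

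**Figure D3:**
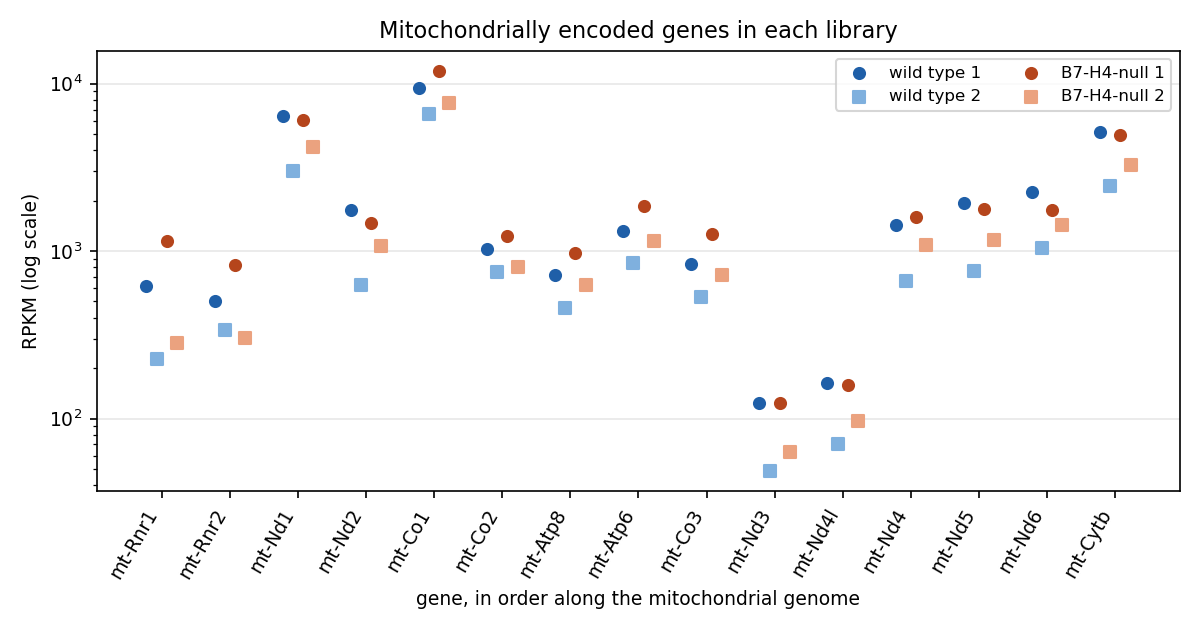
RPKM of each mitochondrially encoded gene (log axis) in the 4 libraries, in genome order; circles are replicate 1 and squares replicate 2, blue shades are wild type and orange shades B7-H4-null. For each of the 15 genes both circles lie above both squares.

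The members followed each other across libraries, in orders that crossed the genotypes. Each of the 15 was higher in replicate 1 than in replicate 2 of both genotypes, by 1.36 to 2.82-fold in wild type (median 2.13-fold) and by 1.22 to 4.09-fold in B7-H4-null (median 1.55-fold). The lowest library was wild type replicate 2 for 14 genes and B7-H4-null replicate 2 for mt-Rnr2. The highest was B7-H4-null replicate 1 for 9 genes and wild type replicate 1 for 6. On the log2(RPKM + 1) scale the pooled standard deviation between replicates had a median of 0.62 over the members and of 0.25 over all genes tested. Over the 1001 nuclear genes at least as abundant on average as the lowest member the median was also 0.25, and all 15 members lay above the median of all genes.

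Some other sums also stood higher in replicate 1 of both genotypes. The sum of 23 genes of mitochondrial DNA replication and transcription was 230 and 193 RPKM in the wild-type libraries and 257 and 216 RPKM in the null libraries, of which Polg2 alone gave 53.9 RPKM in B7-H4-null replicate 1. The sum of 5 megakaryocyte and platelet markers was 29.9 and 16.3 RPKM against 29.1 and 16.1 RPKM, with the platelet genes Pf4 and Ppbp at 0.181 RPKM or less in every library. Gp1bb gave most of the sum in wild type (26.2 and 10.8 RPKM). Itga2b stood at 15.6 and 3.12 RPKM in B7-H4-null, but at 1.92 and 4.04 RPKM in wild type. The sum of 8 mature neutrophil markers was also higher in replicate 1, at 8825 and 4077 RPKM against 3008 and 2761 RPKM. Camp (4657 and 1497 against 1429 and 1362 RPKM) and Ngp (3649 and 2242 against 1543 and 1307 RPKM) gave most of it. Mmp9 and Ly6g were also higher in replicate 1 of both genotypes. Retnlg, Mmp8 and Cxcr2 were higher in replicate 2 of both genotypes, and Ltf was higher in replicate 2 of B7-H4-null. Sums of 6 mast cell and basophil markers (31.1 and 28.6 against 109 and 50.9 RPKM) stood higher in replicate 1 too. So did those of the 3 sort markers (351 and 307 against 217 and 215 RPKM). Within these lists Cpa3 was higher in replicate 2 of wild type (2.10 and 7.76 RPKM), and Itgb2 was not higher in replicate 1 of either genotype. The part of all these sums in the mitochondrial values was not tested.

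Complex I, the entry point of electrons from NADH, has 7 mitochondrially encoded subunits, which form its proton-pumping membrane arm. mt-Nd1 (gene ID 17716, MT 2751 to 3707), next to the quinone site, had 6377 and 2997 RPKM in the wild-type libraries and 6044 and 4177 RPKM in the null libraries. The wild-type libraries enclosed both B7-H4-null libraries, and the log2 difference was 0.20 ± 0.441 (SE, limma adjusted p = 0.883). mt-Nd2 (gene ID 17717, MT 3914 to 4951) had 1758 and 625 RPKM in the wild-type libraries and 1465 and 1077 RPKM in the null libraries, the largest ratio between the wild-type libraries of any member (2.82-fold). mt-Nd4 (gene ID 17719, MT 10167 to 11544) had 1428 and 658 RPKM against 1605 and 1093 RPKM, with a log2 difference of 0.45 ± 0.432 (limma adjusted p = 0.712). In each of these 3 genes the genotypes overlapped.

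The small subunits ND3 and ND4L had the lowest levels of the 15. mt-Nd3 (gene ID 17718, MT 9459 to 9806) had 123 and 48.6 RPKM in the wild-type libraries and 124 and 63.2 RPKM in the null libraries. mt-Nd4l (gene ID 17720, MT 9877 to 10173) had 164 and 70.2 RPKM against 159 and 96.8 RPKM. Their means differed by less than the spread between replicates, with log2 differences of 0.19 ± 0.506 and 0.21 ± 0.453 (limma adjusted p = 0.903 and 0.882). mt-Nd5 (gene ID 17721, MT 11742 to 13565), a large antiporter-like subunit, had 1936 and 760 RPKM against 1787 and 1168 RPKM.

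mt-Nd6 (gene ID 17722, MT 13552 to 14070) is the only protein gene on the minus strand, and its messenger RNA is known to lack a stable poly(A) tail. It had 2240 and 1050 RPKM in the wild-type libraries and 1750 and 1434 RPKM in the null libraries. It is the 1 member whose mean was lower in B7-H4-null, at 1592 ± 224 against 1645 ± 841 RPKM (SD, n = 2), while its log2 difference was 0.05 ± 0.411 (limma adjusted p = 0.977) and −0.0052 after scaling to the nuclear RPKM sum. The library kit named in the labels is not known to mark strand. Reads of the gene and reads of the opposite strand therefore cannot be told apart anywhere along it, not only in the 14 bases that overlap mt-Nd5. The values given for mt-Nd6 may hold both. Its level was 1.16 and 1.38 times that of mt-Nd5 in wild type and 0.979 and 1.23 times in B7-H4-null.

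Complex III has 1 mitochondrially encoded subunit, cytochrome b, which carries its hemes b. mt-Cytb (gene ID 17711, MT 14145 to 15288) had 5170 and 2438 RPKM in the wild-type libraries and 4939 and 3284 RPKM in the null libraries. Again the wild-type libraries enclosed the B7-H4-null libraries, with a log2 difference of 0.18 ± 0.443 (limma adjusted p = 0.896).

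Complex IV, cytochrome c oxidase, takes its 3 catalytic core subunits from the mitochondrial genome. mt-Co1 (gene ID 17708, MT 5328 to 6872), the subunit that reduces oxygen, had 9448 and 6542 RPKM in the wild-type libraries and 11931 and 7678 RPKM in the null libraries. Its mean was 7995 ± 2054 against 9804 ± 3007 RPKM (SD, n = 2), a log2 difference of 0.28 ± 0.378 (limma adjusted p = 0.798). mt-Co2 (gene ID 17709, MT 7013 to 7696), which receives electrons from cytochrome c, had 1024 and 752 RPKM against 1226 and 798 RPKM. mt-Co3 (gene ID 17710, MT 8607 to 9390) had 840 and 530 RPKM against 1258 and 715 RPKM, with a log2 difference of 0.51 ± 0.389 and the smallest adjusted p of the 15 (limma adjusted p = 0.639). B7-H4-null replicate 1 was the highest library for all 3, and wild type replicate 1 lay above B7-H4-null replicate 2 in each.

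In ATP synthase, subunit a forms the proton path and A6L is a small membrane subunit. mt-Atp6 (gene ID 17705, MT 7927 to 8607) had 1321 and 844 RPKM in the wild-type libraries and 1852 and 1148 RPKM in the null libraries, and mt-Atp8 (gene ID 17706, MT 7766 to 7969) had 715 and 455 RPKM against 977 and 629 RPKM. The log2 differences were 0.47 ± 0.372 and 0.46 ± 0.359 (SE, limma adjusted p = 0.653 and 0.647). The levels of these overlapping genes kept a nearly fixed ratio: mt-Atp8 stood at 0.541 and 0.540 times mt-Atp6 in wild type and at 0.528 and 0.548 times in B7-H4-null. In the pair that overlaps by 7 bases, mt-Nd4l stood at 0.115 and 0.107 times mt-Nd4 in wild type and at 0.0991 and 0.0886 times in B7-H4-null, where both null libraries lay below both wild-type libraries. This ratio was picked out after its values were seen and was not tested, and 3 of 8 ratios between members that were computed did not overlap, beside 44% of single genes.

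The mitochondrial ribosome contains 2 rRNAs from this genome, and mt-Rnr1 varied most of the 15 genes between libraries. mt-Rnr1, the small-subunit rRNA (gene ID 17724, MT 70 to 1024), had 617 and 228 RPKM in the wild-type libraries and 1147 and 281 RPKM in the null libraries. Its mean was 422 ± 275 against 714 ± 613 RPKM (SD, n = 2), and the log2 difference of 0.60 ± 0.724, the largest of the 15, did not pass (limma adjusted p = 0.773). mt-Rnr2, the large-subunit rRNA (gene ID 17725, MT 1094 to 2675), had 502 and 335 RPKM against 831 and 304 RPKM. B7-H4-null replicate 1 held both the highest mt-Rnr1 and the highest mt-Rnr2, and the 2 genes were 5.03-fold and 2.73-fold apart between their highest and lowest libraries. The ratio of mt-Rnr1 to mt-Rnr2 was 1.23 and 0.679 in wild type and 1.38 and 0.922 in B7-H4-null. The rRNA genes took 0.214% and 0.107% of the RPKM sum in wild type and 0.368% and 0.105% in B7-H4-null. The TruSeq RNA protocol named in the labels is usually run on poly(A)-selected RNA, so these values do not give rRNA abundance in the cells.

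**Figure D4:**
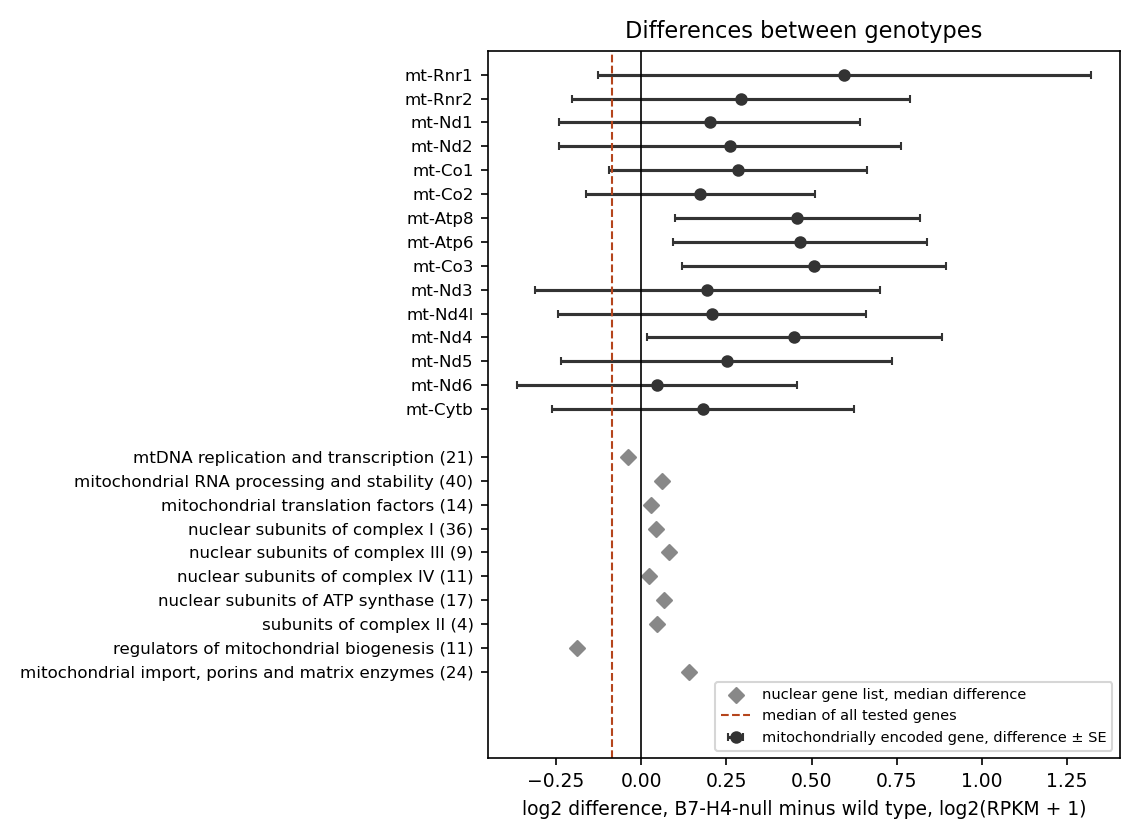
Log2 difference between B7-H4-null and wild type on the log2(RPKM + 1) scale for each mitochondrially encoded gene (points, with bars of 1 SE) and the median difference of lists of nuclear genes for mitochondrial functions (diamonds, number of tested genes in brackets); the dashed line is the median of all genes tested. The points lie between 0.05 and 0.60 with wide error bars, and the list medians between −0.19 and 0.14.

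Within the mitochondrial RNA, the share of mt-Co1 had a 1.27-fold range over the libraries, beside 2.02-fold for the members' RPKM sum. Over the 15 genes these ranges went from 1.15-fold for the share of mt-Cytb to 2.64-fold for that of mt-Rnr1. mt-Co1 took 28.1% and 35.7% of the members' RPKM sum in wild type and 32.2% and 32.1% in B7-H4-null, and mt-Nd1 took 18.9% and 16.3% against 16.3% and 17.4%. mt-Cytb followed with 15.4% and 13.3% against 13.3% and 13.7%. Complex I genes as a group took 41.7% and 33.9% in wild type and 34.9% and 38.0% in B7-H4-null, and complex IV genes 33.6% and 42.7% against 38.9% and 38.4%. The wild-type libraries were further apart than the B7-H4-null libraries in both.

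Of these 15 shares, 4 (26.7%) did not overlap between genotypes, those of mt-Atp8, mt-Atp6, mt-Co3 and mt-Nd4, all higher in B7-H4-null. By RPKM, 44% of all genes tested did not overlap, and 16% were higher in B7-H4-null in this way. The 4 shares were picked out after their values were seen, the shares of the 15 genes sum to a fixed total, and no test was made. mt-Atp6 took 3.92% and 4.60% in wild type and 4.99% and 4.80% in B7-H4-null. mt-Atp8 took 2.12% and 2.48% against 2.63% and 2.63%, and mt-Co3 2.50% and 2.89% against 3.39% and 2.99%. For mt-Nd4 the shares were 4.24% and 3.59% against 4.33% and 4.56%. mt-Atp8, mt-Atp6 and mt-Co3 are neighbours on the genome.

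The nuclear subunits of the same complexes did not follow the mitochondrial ones across libraries. Summed over 36 nuclear complex I subunits, the level was 3261 and 3866 RPKM in the wild-type libraries and 3217 and 3928 RPKM in the null libraries, a 1.22-fold range. The 7 mitochondrial subunits summed to 14026 and 6209 RPKM against 12934 and 9109 RPKM, a 2.26-fold range. In wild type and in B7-H4-null, the library with the lower mitochondrial sum had the higher nuclear sum, and this was so for complexes I, III and IV and for ATP synthase.

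The ratio of the mitochondrial to the nuclear sum describes this in each library. For complex I it was 4.30 and 1.61 in wild type and 4.02 and 2.32 in B7-H4-null, and for complex III 4.58 and 1.69 against 4.26 and 2.14. For complex IV it was 5.23 and 2.95 against 6.86 and 3.20, and for ATP synthase, most of whose subunits are nuclear, 0.651 and 0.352 against 0.874 and 0.423. In each complex the first replicates stood above the second replicates of both genotypes. RPKM values of a library compete for the same total, and sums over different numbers of genes are not stoichiometries.

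**Figure D5:**
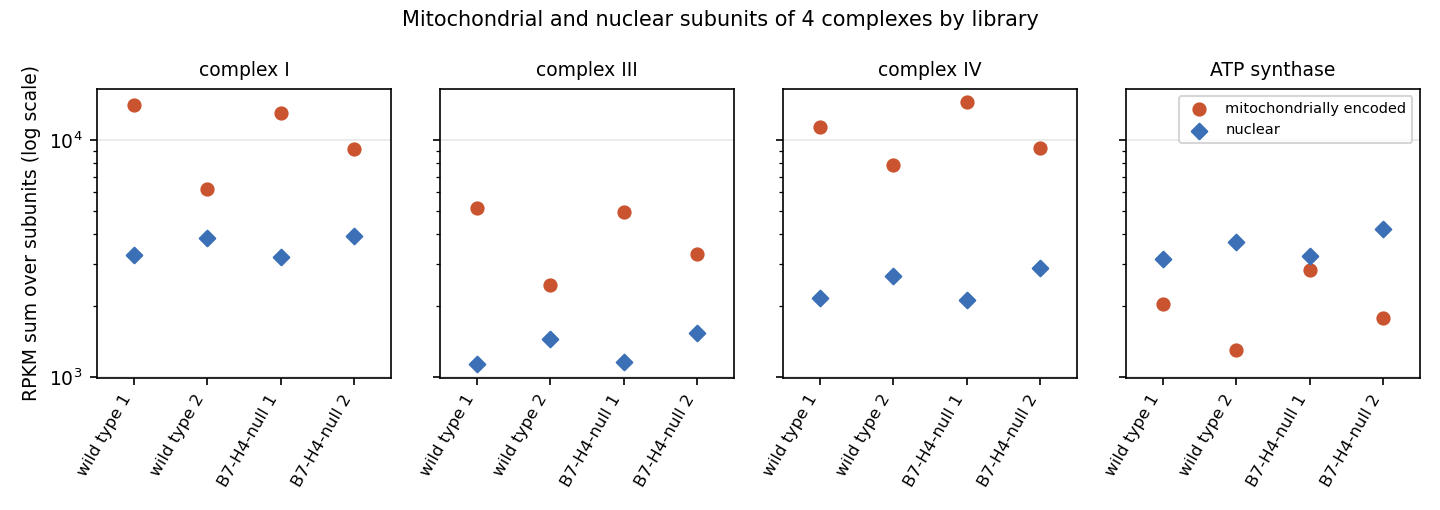
RPKM summed over the mitochondrially encoded subunits (circles) and over the nuclear subunits (diamonds) of complexes I, III and IV and of ATP synthase in the 4 libraries (log axis). The mitochondrial sums are higher in replicate 1 of each genotype and the nuclear sums in replicate 2.

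No tested nuclear subunit passed the test between genotypes. The median log2 difference was 0.04 over 36 genes of complex I, 0.08 over 9 of complex III, 0.02 over 11 of complex IV and 0.07 over 17 of ATP synthase. Over the 4 genes of complex II, which has no mitochondrially encoded subunit, it was 0.05. The sign of these 5 medians depended on single libraries. With B7-H4-null replicate 2 left out they were −0.12, −0.17, −0.21, −0.06 and −0.16 in the same order, and with wild type replicate 1 left out −0.12, −0.10, −0.09, −0.04 and −0.12. With B7-H4-null replicate 1 left out they were 0.20, 0.29, 0.27, 0.24 and 0.25. The smallest p over these 5 lists was that of Sdha in complex II, with a log2 difference of 0.33 ± 0.253 (SE, limma adjusted p = 0.6403). In complexes I and III the smallest p were those of Ndufb7 (288 ± 33.3 against 230 ± 48.6 RPKM, limma adjusted p = 0.677) and Uqcrc2 (106 ± 11.2 against 126 ± 26.5 RPKM, limma adjusted p = 0.764). In complex IV and ATP synthase they were those of Cox7b (95.1 ± 4.64 against 111 ± 23.2 RPKM, limma adjusted p = 0.795) and Atp5g1 (12.7 ± 1.03 against 15.4 ± 2.28 RPKM, limma adjusted p = 0.712). The RPKM values of these 4 genes are means with SD (n = 2 each).

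The genes that copy and transcribe mitochondrial DNA went both ways, and none of 21 tested passed. The median log2 difference was −0.04, with 10 above and 11 below 0, and it was 0.08 with wild type replicate 1 left out, 0.0058 without the first null library and 0.07 without the second. Tfb1m, which methylates the small rRNA, had 5.26 ± 0.714 against 10.4 ± 1.81 RPKM (SD, n = 2), a log2 difference of 0.86 ± 0.262 (limma adjusted p = 0.319). Polg2, the accessory subunit of the mitochondrial DNA polymerase, had 14.4 and 10.2 RPKM in the wild-type libraries and 53.9 and 20.99 RPKM in the null libraries (limma adjusted p = 0.326). Top1mt, the mitochondrial topoisomerase, had 8.99 ± 3.25 against 16.03 ± 0.650 RPKM, and Dguok, a kinase of deoxynucleoside supply, 12.02 ± 0.837 against 17.7 ± 0.277 RPKM (limma adjusted p = 0.363 and 0.442). In these 4 genes both B7-H4-null libraries lay above both wild-type libraries, which was so for 7 of the 21 (16% of all genes tested), while 4 of the 21 were lower without overlap (28% of all genes tested).

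None of 40 genes of mitochondrial RNA processing and stability passed, with a median of 0.06, 9 higher and 8 lower without overlap (16% and 28% of all genes tested). Its median was −0.08 with B7-H4-null replicate 2 left out. Mrm2, a methyltransferase of the large rRNA, had 6.14 ± 0.983 against 3.22 ± 0.750 RPKM, and Fastkd5, which acts in the processing of precursors that lack tRNA cut sites, 3.87 ± 0.566 against 1.97 ± 0.227 RPKM (SD, n = 2, limma adjusted p = 0.354 and 0.363). Gtpbp3, a tRNA-modifying enzyme, had 5.94 ± 2.0 against 9.19 ± 0.776 RPKM, and Supv3l1, the helicase of the RNA-degrading complex, 11.4 ± 4.99 against 17.5 ± 0.221 RPKM (limma adjusted p = 0.486 and 0.491). None of 14 mitochondrial translation factors passed (median 0.03, and −0.06 with B7-H4-null replicate 2 left out). Mrrf, the ribosome recycling factor, had the smallest p among them, at 2.34 ± 0.0904 against 4.69 ± 1.44 RPKM (SD, n = 2, limma adjusted p = 0.373).

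Of 11 tested regulators of mitochondrial biogenesis none passed, with a median of −0.19. Ppargc1b, a coactivator of respiratory genes, had 0.512 and 0.385 RPKM in the wild-type libraries and 2.44 and 3.04 RPKM in the null libraries, a log2 difference of 1.36 ± 0.273 (SE, limma adjusted p = 0.178). Gabpb1, a subunit of the factor also called NRF-2, had 23.8 ± 1.03 against 14.4 ± 1.46 RPKM, and Nrf1, a factor that binds many respiratory gene promoters, 18.7 ± 5.38 against 12.2 ± 2.51 RPKM (SD, n = 2, limma adjusted p = 0.337 and 0.51). Sirt1, a deacetylase, had 19.5 and 7.34 RPKM in the wild-type libraries against 94.7 and 14.9 RPKM in the null libraries, where 1 library set the mean. Among 24 genes of import, porins and matrix enzymes the median was 0.14 and none passed, and the median was 0.38 with B7-H4-null replicate 1 left out and −0.14 with replicate 2 left out. Slc25a4, an ADP/ATP carrier, had the smallest p among them, at 56.7 ± 7.71 against 118 ± 30.6 RPKM (SD, n = 2, limma adjusted p = 0.295).

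Other differences between the libraries stand beside these values. Vtcn1, which encodes B7-H4, had 0 RPKM in both wild-type libraries and 0.0405 and 0.0353 RPKM in the null libraries. At the shortest gene length that fits these values, that is 1 read in each B7-H4-null library, too few to check the labels. The sort markers Itgam, Itgb2 and Kit were present in every library, at 7.19 RPKM or more. Itgb2 (213 and 213 against 123 and 146 RPKM) and Itgam (114 and 86.9 against 82.9 and 59.9 RPKM) were lower without overlap in B7-H4-null, and the median log2 difference of the 3 was −0.49. All 8 mature neutrophil markers were lower without overlap in B7-H4-null (28% of all genes tested were lower in this way). Tested markers of other cells that were higher without overlap numbered 2 of 2 for mast cells and basophils, 2 of 3 for B and plasma cells and 2 of 5 for monocytes and macrophages. None of these markers passed limma's test. All gene lists used here were chosen with earlier results of these data known, so such counts are description only. A further list of 16 genes held immediate early and stress genes, such as Fos, Jun and Hspa1a, and the long noncoding RNAs Malat1 and Neat1. The summed level of the 16 was 2461 and 3599 RPKM in the wild-type libraries and 12875 and 5913 RPKM in the null libraries. Of the 16, 15 were higher without overlap (16% of all genes tested were higher in this way). Of 11 listed nuclear RNAs without a poly(A) tail that are in the table, 6 were tested, and the sum was 31.8 and 13.6 RPKM against 116 and 183 RPKM, with Rn5s, Rprl1 and Rprl2 at 0 throughout. The part of the last 2 sums in the mitochondrial values was not tested. Of the T and NK cell markers Cd3e was at 0.140 RPKM or less, and only Nkg7 of 9 was high enough to be tested.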

How the data were processed

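RNA-seq values of 4 libraries (2 wild type, 2 B7-H4-null) were used as the authors deposited them, in RPKM, 1 column per library and 1 row per Entrez gene ID. The unit was taken from the values. TopHat2 2.0.12 and GRCm38 are named per the submitters' processing notes, while the sources used here do not give the counting program, its annotation, its strand setting or its treatment of multiply aligned reads. The smallest total that made RPKM times RefSeq length whole for all 15 genes (within 0.001 read) gave each library's reads. For other genes the length was recovered the same way, up to a common factor. These lengths served the voom alternative, the simulated data and the reads of Vtcn1. Groups and replicate numbers came from the titles, and the genotype labels gave the same groups.

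The test ran on the 12107 genes that reached 1 RPKM in 2 or more libraries, with limma 3.58.1 in R 4.3.3 on log2(RPKM + 1). The model held genotype alone, the variance prior followed the mean, and two-sided p-values were adjusted by Benjamini-Hochberg at 0.05. This scale understates changes of low genes. The script was tested on simulated data. Alternatives were a pseudocount of 0.1, no filter, a filter at 5 RPKM, 3 other scalings, no trend, limma voom on recovered reads, the replicate block and leaving out each library. The mitochondrial genome as the set to describe and the gene lists were chosen with earlier results of these data known. Within that set the members were fixed by where they lie. All 15 genes are named, and from each pathway list at most the 4 tested genes of lowest p. No raw counts were in the table, so the test planned for counts was not used. Symbols came from NCBI's GRCm38.p6 table for 25275 of 27179 IDs. Some listed genes were matched through older symbols. Windows of 50 and 100 bases were compared with GENCODE M21 transcripts on both strands.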

Additional observations from a re-analysis of the deposited data

How the results depend on the processing

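No mitochondrially encoded gene passed limma's test under any of the 13 alternatives (smallest adjusted p = 0.247, with the replicate block). Apart from leaving out libraries, 132 of 135 values kept their direction. The others were mt-Nd6 after scaling to the nuclear RPKM sum (−0.0052) and after quantile normalization (−0.19), and mt-Co2 after quantile normalization (−0.15). Over the libraries left out in turn, 20 of 60 values turned, 10 of them when wild type replicate 2 was dropped and 10 when the first null library was. The log2 differences then ranged from −0.42 to 1.61 for mt-Rnr1, −0.43 to 1.02 for mt-Rnr2, −0.34 to 0.75 for mt-Nd1, −0.48 to 1.01 for mt-Nd2, −0.034 to 0.60 for mt-Co1, −0.14 to 0.48 for mt-Co2, −0.47 to 0.85 for mt-Nd3, −0.40 to 0.81 for mt-Nd4l, −0.11 to 1.01 for mt-Nd4, −0.42 to 0.92 for mt-Nd5, −0.50 to 0.59 for mt-Nd6 and −0.36 to 0.72 for mt-Cytb, and stayed above 0 for mt-Atp8, mt-Atp6 and mt-Co3. The median of the 15 ranged from −0.12 to 0.79, and the difference in share from −0.86 to 2.12 percentage points.

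The number of members without overlap was 1 after quantile normalization (mt-Nd1) and ranged from 1 to 14 with a library left out, where fewer samples make overlap less likely. Of all genes, 12 passed, but 0 with no filter on low values (where 799 higher and 1088 lower genes had an unadjusted p under 0.05), 21 with the replicate block, and 0 to 56 with a library left out. Leaving out either null library gave 0, leaving out wild type replicate 1 gave 56, and 29 passed with wild type replicate 2 left out. The cause was not tested. Same-numbered libraries are not said to be paired, and the differences between replicates 1 and 2 correlated across genes between the genotypes (Pearson's r = 0.25 over 12107 genes, which are not independent replicates). Each member had at least 168 reads in each library.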
